A study of Saccharomyces cerevisiae with 26 samples.

Results

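The 10 genes described here encode plasma membrane permeases of Saccharomyces cerevisiae that take up amino acids or small peptides: *GAP1* (YKR039W), *AGP1* (YCL025C), *GNP1* (YDR508C), *BAP2* (YBR068C), *BAP3* (YDR046C), *TAT1* (YBR069C), *TAT2* (YOL020W), *DIP5* (YPL265W), *MUP1* (YGR055W) and *PTR2* (YKR093W). They were selected by systematic identifier, on the function of their products and with earlier results of these libraries known, and all 10 were found among the 6600 genes of the files. One of those earlier results was the lower level of *BAP2* at 50% CO2 against the reference at both pH values, so the comparisons of 50% CO2 with the reference are given below as descriptions with no test.

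RNA was sequenced from 26 libraries of the laboratory strain CEN.PK113-7D, grown aerobically under glucose limitation in a synthetic medium whose recipe lists ammonium sulfate as nitrogen source and no amino acid. The study held the pH of its glucose-limited cultures by adding ammonium hydroxide, so ammonium also entered in amounts that are not given. The chemostats ran at a dilution rate of 0.025 per h, on 20 g of glucose per L and with extra iron and biotin. Their 4 groups of 3 libraries crossed pH 5 or 3 with 0.04% or 50% CO2 in the inflowing gas, and the air-sparged cultures at pH 5 were the reference. The groups were alike in dilution rate but not in cell state. Per the study, the low-pH chemostats had lower viability than the others and a higher growth rate of viable cells. At low pH that growth rate was lower under high CO2, while the study reports no significant effect of CO2 on viability. The part of these differences in the results was not tested. A retentostat keeps the cells in the reactor so that growth slows towards zero, and 2 cultures per condition were each sampled at 4 points, point 1 being the steady state before retention. The laboratory retentostats were at pH 5 and 0.04% CO2 and their glucose feed was lowered to 7.5 g per L at the start of retention, while the industrial ones were at pH 3 and 50% CO2 and stayed on 20 g per L with the extra iron and biotin. The pH 3 and 50% CO2 steady-state group held 1 library labelled as a chemostat and the 2 libraries of industrial point 1, so these 2 libraries entered both the steady-state and the retentostat comparisons. Levels were not compared between the retentostat conditions, because feed, medium and possibly the sequencing provider differed between them. Each group is 1 strain in 2 or 3 cultures. Per the study's methods, the pH 3 cultures oscillated in their off-gas and were sampled without regard to the phase. The oscillations faded during retention, so that the industrial points also differ in them, and their part in the results was not tested.

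Yeast senses amino acids outside the cell with the SPS complex (Ssy1, Ptr3 and Ssy5) in the plasma membrane. When amino acids are present, Ssy5 cuts the transcription factors Stp1 and Stp2, which then enter the nucleus and induce a set of permease genes that includes *AGP1*, *GNP1*, *BAP2*, *BAP3*, *TAT1*, *TAT2*, *DIP5* and *PTR2*. *GAP1*, the general amino acid permease, is instead kept low by good nitrogen sources through GATA factors (nitrogen catabolite repression). *PTR2*, the carrier of di- and tripeptides, is repressed by Cup9, which the ubiquitin ligase Ubr1 marks for breakdown when peptides enter the cell. These carriers are proton symporters.

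The DNA upstream of the genes is shown first, since these genes share regulators that read it. Sequences and positions are those of the RefSeq annotation of the R64 reference genome, the build to which the reads were mapped, and the strain sequenced may differ from it. The core CGGC, which Stp1 and Stp2 recognise, was counted on both strands in the 500 bases before each start codon. Matches on opposite strands can overlap, as in GCCGGC before *TAT1*, and each was counted. The core occurred at least 3 times before 8 of the 10 genes, all but *DIP5* with 0 and *PTR2* with 1, and before 18.2% of 5896 genes. In the stretches below CGGC, or GCCG where it lies on the other strand, is in capitals. They show *BAP2*, the gene that fell at 50% CO2, its chromosome II neighbour *TAT1*, and *DIP5* and *AGP1*, the tested permeases with the largest log2 rise over the industrial retentostats.
*BAP2* chrII:375926-376125, minus strand: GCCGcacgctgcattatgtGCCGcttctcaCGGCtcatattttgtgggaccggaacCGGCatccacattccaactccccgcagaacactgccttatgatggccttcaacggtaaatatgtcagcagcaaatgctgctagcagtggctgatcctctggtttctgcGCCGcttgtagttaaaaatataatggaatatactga
*TAT1* chrII:378702-378901, minus strand: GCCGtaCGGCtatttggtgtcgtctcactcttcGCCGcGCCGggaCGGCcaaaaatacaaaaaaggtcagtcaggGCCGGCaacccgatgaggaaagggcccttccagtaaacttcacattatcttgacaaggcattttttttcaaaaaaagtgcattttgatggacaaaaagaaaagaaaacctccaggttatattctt
*AGP1* chrIII:78129-78328, minus strand: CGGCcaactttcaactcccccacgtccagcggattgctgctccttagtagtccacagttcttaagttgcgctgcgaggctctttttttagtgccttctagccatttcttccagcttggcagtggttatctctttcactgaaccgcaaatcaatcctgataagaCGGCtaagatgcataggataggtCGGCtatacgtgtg
*DIP5* chrXVI:40793-40992, plus strand: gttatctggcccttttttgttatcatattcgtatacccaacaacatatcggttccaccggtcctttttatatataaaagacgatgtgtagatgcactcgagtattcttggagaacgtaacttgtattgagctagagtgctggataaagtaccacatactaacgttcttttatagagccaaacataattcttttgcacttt
The *BAP2* stretch starts 435 bases before the start codon and holds 5 of the 6 matches of the gene. The *TAT1* stretch starts 468 bases before it and holds all 7, the *AGP1* stretch starts 409 bases before it and holds 3 of 4, and the *DIP5* stretch starts 250 bases before it and holds 0.

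The GATA factor core GATAAG lay 4 times before *GAP1*, 2 times before *AGP1* and 1 time before *PTR2*, and not in the window of the other 7 genes. At least 1 match lay before 22.9% of all genes, and 4 or more before 0.204% of them. The stretch of *GAP1* that starts 469 bases before its start codon holds all 4, in capitals (CTTATC on the other strand).
*GAP1* chrXI:514594-514833, plus strand: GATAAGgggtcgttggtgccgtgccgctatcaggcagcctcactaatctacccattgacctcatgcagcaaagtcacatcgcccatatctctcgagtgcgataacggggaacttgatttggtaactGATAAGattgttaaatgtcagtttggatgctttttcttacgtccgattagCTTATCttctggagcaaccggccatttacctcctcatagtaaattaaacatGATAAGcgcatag
TGACTC, the core of the site of Gcn4, the activator of amino acid synthesis genes, lay 2 times before *MUP1* and 1 time before *AGP1* and *BAP2*, against 12.9% of all genes with at least 1. CACGTG, the site of Cbf1, a factor of sulfur amino acid metabolism, lay before none of the 10 and before 6.29% of all genes. A match is a string of letters and not a measured binding site.

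All 10 genes have a single coding exon. *GAP1* and *PTR2* are on chromosome XI, *GNP1* and *BAP3* on IV, *BAP2* and *TAT1* next to each other on II, and the others on III (*AGP1*), XV (*TAT2*), XVI (*DIP5*) and VII (*MUP1*). The most alike coding sequences were those of *AGP1* and *GNP1*, identical at 72.6% of 1872 aligned bases, and of *BAP2* and *BAP3*, at 70.4% of 1792. *AGP1* and *GNP1* shared 18 windows of 30 bases and no window of 75 bases, and *BAP2* and *BAP3* shared neither, so that few reads could belong to either gene of a pair.

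Levels are FPKM (fragments per kilobase of gene, relative to the library total), scaled by 1 factor per library. The library totals implied by the deposited values were 12528647 to 86470818 reads. *NCE103*, the carbonic anhydrase gene that is low at high CO2, followed the labels, with 139 to 175 FPKM in the 6 steady-state libraries at 50% CO2 and 2482 to 5166 FPKM in the 6 at 0.04%. Of the a-cell markers of this MATa strain (*MFA1*, *MFA2*, *STE2* and *BAR1*) all 4 were above 0 in every library, and their summed level was 51169 to 66574 FPKM in the reference, 18091 to 26447 at pH 5 with 50% CO2, 3745 to 5368 at pH 3 with 0.04% and 4796 to 8317 at pH 3 with 50%. The 3 alpha-cell markers (*MF(ALPHA)1*, *MF(ALPHA)2* and *STE3*) were also above 0 throughout and summed to 1033 to 2678 FPKM in the reference and to 46.9 to 211 FPKM in the other steady-state groups, so these levels moved with the groups, and their part in the permease results was not tested. In bulk RNA a smaller share of cells expressing a gene and less RNA of it per cell cannot be told apart.

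Of the 10 permeases 7 were tested at steady state, since *BAP3*, *TAT1* and *PTR2* had means of 1.60, 5.55 and 7.90 FPKM over the 12 libraries, under the filter of 10. In the retentostats 9 were tested, all but *BAP3*. Among the steady-state libraries 2 stood apart in these genes. Reference culture 3 was the lowest of its group for all 10 permeases, against 45.9% of the 5078 genes tested. Culture 1 at pH 5 with 50% CO2 was likewise the lowest of its group for all 10, against 49.5% of the genes tested. At pH 3 with 0.04% CO2, culture 1 was the highest for 8 of the 10 and the lowest for *PTR2*, against 2032 and 2359 of the 5078 genes tested. Culture 1 at pH 3 with 50% CO2 was also the highest for 8 of the 10, against 40.7%. The effect of leaving out the first 2 of these libraries, a choice made after seeing the data, is given beside each count of permeases it changes.

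**Figure D1:**
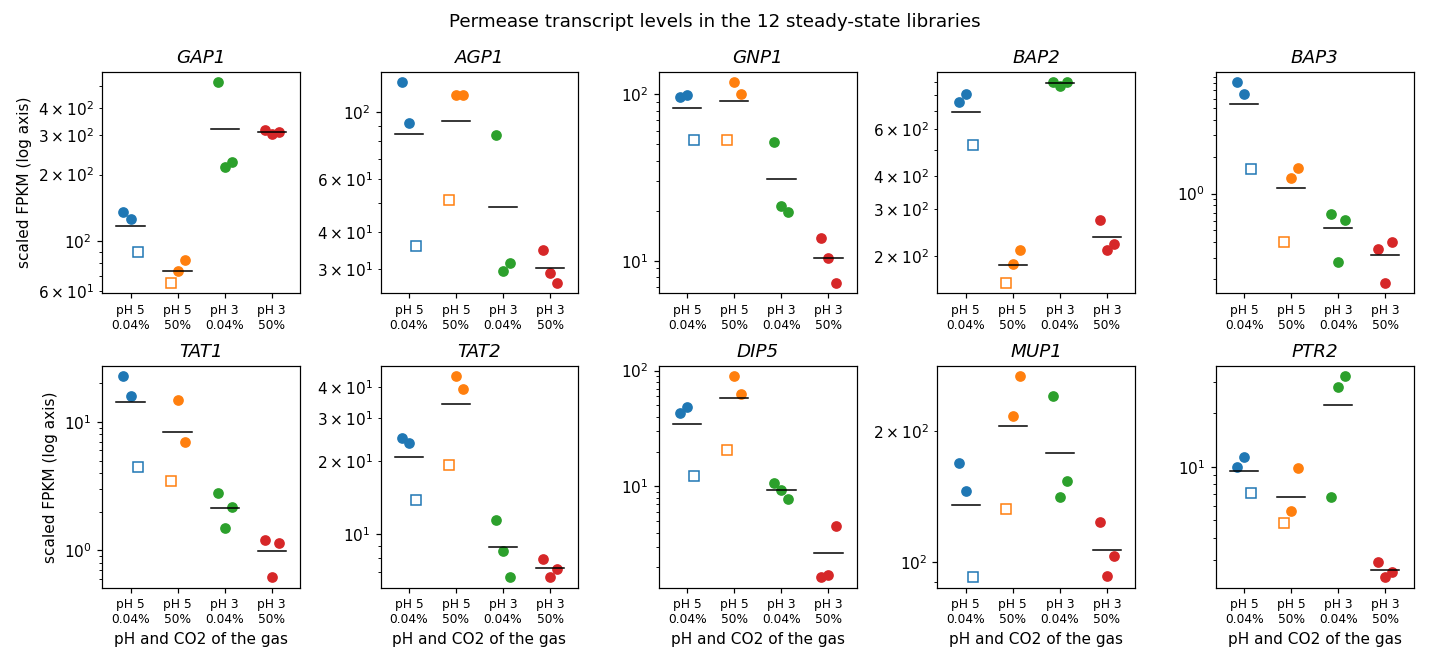
Scaled FPKM (log axis) of each permease gene in the 12 steady-state libraries, by pH and CO2. Each point is 1 library, lines are group means, and open squares mark reference culture 3 and culture 1 at pH 5 with 50% CO2, which are the lowest of their groups in all 10 panels.

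*BAP2* and *BAP3* carry the branched-chain amino acids leucine, isoleucine and valine. *BAP2* was the most abundant of the 10 in the reference, with 757, 808 and 521 FPKM in cultures 1 to 3. At pH 5 with 50% CO2 it had 158, 186 and 211 FPKM, all below every reference culture, and the mean was 3.75-fold lower. At pH 3 with 0.04% CO2 it had 897, 866 and 899 FPKM, and at pH 3 with 50% CO2 it had 274 and 211 in the 2 industrial cultures and 221 in the chemostat. The order of its group means was therefore pH 3 with 0.04%, the reference, pH 3 with 50% and pH 5 with 50%, where the lowest culture of the third group and the highest of the fourth both had 211 FPKM.

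At pH 3 the fall of *BAP2* at 50% against 0.04% CO2 was tested with limma across 5078 genes, where 8.92% of genes passed (fold above 2 and adjusted p under 0.005). Its log2 change was -1.92 (SE 0.18, adjusted p = 9.9e-05), with all 3 libraries at 50% CO2 below all 3 at 0.04%, and it passed under each of 22 alternatives, at -2.03 to -1.30. The 50% CO2 libraries of this test are those of the comparison with the reference that is only described, so it is not independent of what was known. *BAP2* was the only one of the 7 permeases tested that passed. The interaction, that is the difference between the CO2 effects at both pH values, was -0.03 (SE 0.25, adjusted p = 0.93) for *BAP2*, and this near-zero value changed sign under 7 of 21 alternatives, reaching 0.61 on the deposited values without scaling. Against the reference, the fitted log2 differences of *BAP2* were -1.89 (SE 0.18) for the pH 5 cultures under 50% CO2 and -1.54 (SE 0.18) for those at pH 3. These last 2 values use the libraries and contrasts in which the gene was first noted.

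*BAP3* was the least abundant of the 10 at steady state. It had 8.21, 6.55 and 1.59 FPKM in the reference cultures, 0.403, 1.34 and 1.62 at pH 5 with 50% CO2. At pH 3 it had 0.683, 0.276 and 0.605 FPKM under 0.04% CO2 and 0.350, 0.186 and 0.401 under 50%. The 6 libraries at pH 3 held only 4 to 13 of its reads each. The gene was not tested, and its mean at pH 3 with 50% CO2 was 17.4-fold under that of the reference.

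*AGP1* carries many amino acids with broad specificity, and its relative *GNP1* prefers glutamine. *AGP1* had 126, 91.6 and 35.9 FPKM in the reference, 51.1, 114 and 114 at pH 5 with 50% CO2. Its pH 3 cultures had 83.6, 29.7 and 31.4 FPKM under 0.04% CO2 and 34.8, 29.1 and 27.0 under 50%. Its spread within groups was wide, and only the pH 3 and 50% CO2 libraries lay together. *GNP1* had 96.1, 99.1 and 53.5 FPKM in the reference, 53.1, 119 and 101 at pH 5 with 50% CO2. At pH 3 it had 51.8, 21.4 and 19.7 FPKM under 0.04% CO2 and 13.7, 10.4 and 7.36 under 50%. All 6 pH 3 libraries of *GNP1* lay below all 6 at pH 5, and at pH 3 those at 50% CO2 lay below those at 0.04%.

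*TAT1* and *TAT2* carry tyrosine and tryptophan, *TAT2* with high affinity for tryptophan. *TAT1* had 22.5, 15.9 and 4.45 FPKM in the reference, 3.47, 14.7 and 6.93 at pH 5 with 50% CO2. Its pH 3 cultures had 2.82, 1.48 and 2.17 FPKM under 0.04% CO2 and 1.20, 0.616 and 1.14 under 50%. It was under the filter and not tested, and every pH 3 library lay below every pH 5 library. *TAT2* had 24.8, 23.7 and 13.8 FPKM in the reference, 19.3, 44.3 and 39.3 at pH 5 with 50% CO2. At pH 3 it had 11.4, 8.58 and 6.72 FPKM under 0.04% CO2 and 7.94, 6.66 and 7.22 under 50%. Here too the pH 3 libraries lay below the pH 5 libraries, while the pH 3 groups overlapped.

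*DIP5*, the carrier of glutamate and aspartate, had 43.4, 48.7 and 12.3 FPKM in the reference and 20.5, 89.1 and 63.2 at pH 5 with 50% CO2. Its pH 3 cultures had 10.6, 9.32 and 7.75 FPKM with 0.04% CO2 and 1.64, 1.73 and 4.58 with 50%. The order of the means was pH 5 with 50%, the reference, pH 3 with 0.04% and pH 3 with 50%, the first pair overlapping and the others separate.

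*MUP1*, the high-affinity methionine permease, had 169, 145 and 92.3 FPKM in the reference, 133, 217 and 266 at pH 5 with 50% CO2. At pH 3 it had 241, 141 and 153 FPKM under 0.04% CO2 and 124, 93.1 and 103 under 50%. The pH 3 and 50% CO2 libraries lay below all those at pH 5 with 50% and at pH 3 with 0.04%, and the other groups overlapped. *GAP1* had 136, 126 and 89.7 FPKM in the reference, 65.0, 73.6 and 82.5 at pH 5 with 50% CO2. Its pH 3 cultures had 523, 216 and 228 FPKM under 0.04% CO2 and 319, 306 and 312 under 50%. All 6 of its pH 3 libraries were above all 6 at pH 5, the opposite order to that of *GNP1*, *TAT1*, *TAT2* and *DIP5*. *PTR2* had 9.97, 11.4 and 7.13 FPKM in the reference, 4.86, 5.62 and 9.82 at pH 5 with 50% CO2. At pH 3 it had 6.81, 28.2 and 32.3 FPKM under 0.04% CO2 and 2.92, 2.39 and 2.55 under 50%. *PTR2* was under the filter and not tested, and at pH 3 the 50% CO2 mean was 8.56-fold lower, with no overlap.

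For low pH at 0.04% CO2, none of the 7 permeases tested passed, against 3.70% of the 5078 genes. *GAP1* was 2.75-fold higher by group means, with a log2 difference of 1.35 (SE 0.28) and an adjusted p of 0.0071 that missed the limit of 0.005. *GNP1* was at -1.48 (SE 0.40, adjusted p = 0.023), *TAT2* at -1.12 (SE 0.30, adjusted p = 0.023), *DIP5* at -1.60 (SE 0.56, adjusted p = 0.062) and *AGP1* at -0.79 (SE 0.48, adjusted p = 0.25). At an unadjusted p under 0.05 this comparison held 4 of the 7, namely *GAP1*, *GNP1*, *TAT2* and *DIP5*, and 37.5% of all genes. Without the 2 libraries that stood apart, *TAT2* at -1.38 (adjusted p = 0.00067) and *DIP5* at -2.21 (adjusted p = 0.00075) passed, and 3.45% of all genes did. These genes were lowest in the reference culture left out, which widens the difference, and both reached the filter only through the pH 5 groups, with means at pH 3 of 8.91 and 7.27 FPKM for *TAT2* and 9.24 and 2.65 FPKM for *DIP5*. *BAP2* at 0.38 and *MUP1* at 0.40 changed sign, to -0.067 and -0.043, on the deposited values, where the median of all genes was shifted by -0.42. There *GNP1* at -1.89 (adjusted p = 0.0037) and *TAT2* at -1.49 (adjusted p = 0.0028) passed.

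For CO2 at pH 3, *DIP5* was at -1.57 (SE 0.56, adjusted p = 0.037), *GNP1* at -1.38 (SE 0.40, adjusted p = 0.016), *MUP1* at -0.70 (SE 0.29, adjusted p = 0.063) and *AGP1* at -0.49 (SE 0.48, adjusted p = 0.40). *TAT2* at -0.24 (SE 0.30) and *GAP1* at 0.08 (SE 0.28) were nearest to zero. *DIP5* and *TAT2* lay below the filter in both groups of this comparison and were tested only because their pH 5 levels are higher. Without the 2 libraries that stood apart, which left these differences as they were and lowered the error, *DIP5* (adjusted p = 0.00071) and *GNP1* (adjusted p = 0.0040) passed. On the deposited values the median of all genes was shifted by 0.60 in this comparison, and *AGP1* and *TAT2* took the opposite sign, at 0.10 and 0.30. For the interaction 0 of the 7 passed under limma, against 2.52% of genes, with 3 of the 7 at an unadjusted p under 0.05 (*DIP5*, *MUP1* and *GNP1*) and 43.1% of all genes at that limit, a share like that of the permeases. *DIP5* had the largest value, -2.27 (SE 0.80, adjusted p = 0.059), and passed without the 2 libraries (-2.27, adjusted p = 0.0029), where 10.7% of all genes did. Nothing is read from that call either.

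The comparisons of 50% CO2 with the reference are descriptions, and nothing is read from their counts, since these values were known when the genes were chosen. At pH 5 the same limits held 1 of the 7 permeases, *BAP2*, and 0.512% of genes. At pH 3 they held 2, *BAP2* and *GNP1*, and 1.48% of genes, and without the 2 libraries that stood apart 5 of the 7 and 5.10% of genes. In the pH 3 comparison *GNP1* was at -2.86 (SE 0.40), *DIP5* was at -3.17 (SE 0.56), *TAT2* at -1.36 (SE 0.30), *AGP1* at -1.28 (SE 0.48) and *MUP1* at -0.31 (SE 0.29), while *GAP1* was at 1.43 (SE 0.28). By group means, *DIP5* was 13.1-fold, *TAT1* 14.5-fold, *GNP1* 7.92-fold and *PTR2* 3.62-fold lower than in the reference, and *GAP1* was 2.66-fold higher. The *DIP5* value rests on the chemostat library, without which it was 20.6-fold, while the fit with that library alone gave a log2 difference of -2.47. At pH 5 with 50% CO2, *DIP5* at 0.70 (SE 0.56), *TAT2* at 0.66 (SE 0.30), *MUP1* at 0.58 (SE 0.29), *AGP1* at 0.22 (SE 0.48) and *GNP1* at 0.11 (SE 0.40) were above the reference and *GAP1* at -0.65 (SE 0.28) was below it. With each library left out in turn, the values of *AGP1* (-0.30 to 0.60) and *GNP1* (-0.18 to 0.45) spanned zero.

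**Figure D2:**
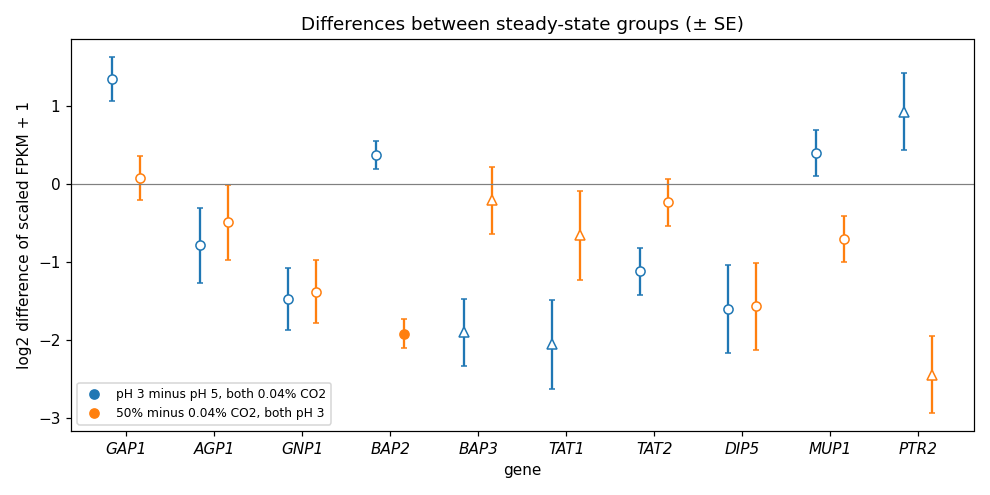
Log2 difference of scaled FPKM + 1 (± SE) of each permease gene for pH 3 against pH 5 at 0.04% CO2 and for 50% against 0.04% CO2 at pH 3. Filled symbols passed the limits, open circles did not, and triangles were under the filter and not tested: *BAP2* at pH 3 (-1.92) is the only filled symbol.

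Over the industrial retentostats *DIP5*, *AGP1*, *TAT1*, *PTR2*, *GNP1* and *TAT2* transcripts rose, those of *DIP5* and *AGP1* most on the log2 scale of the test. These were 6 of the 9 permeases that passed the filter, tested between point 1 and point 4 under limma (fold above 2 and adjusted p under 0.03), and 0 of the 9 fell. Of all 5613 genes 3.92% passed, and 2.58% of the 5613 passed as higher. The median log2 change of the 9 was 1.19, and that of all genes was 0.01. With the 8 industrial libraries alone, where *TAT1* and *PTR2* are under the filter, 4 of 7 passed, and 3.61% of 5130 genes. In the fit of all 16, *TAT1* and *PTR2* passed the filter only through the laboratory libraries, with means of 2.53 and 7.63 FPKM over the 8 industrial libraries. With the 8 alone, *TAT2* and *DIP5* passed the filter, at means of 12.3 and 19.6 FPKM, through their later points. At industrial point 1 their scaled means were 7.30 and 1.68 FPKM, so both counts depend in part on the filter.

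*DIP5* had 1.64 and 1.73 FPKM at point 1 in cultures 1 and 2, from 47 reads each, 16.6 and 9.85 at point 2, 17.8 and 21.8 at point 3, and 38.3 and 47.1 at point 4. It was higher in both cultures at each later point than at point 1, and the mean at point 4 was 25.4-fold that at point 1. Its log2 change of 4.02 (SE 0.30, adjusted p = 1.5e-05) ranked 2 of 5613 by size.

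*AGP1* had 34.8 and 29.1 FPKM at point 1, 49.6 and 72.1 at point 2, 125 and 116 at point 3, and 205 and 222 at point 4. The points did not overlap, and at point 4 the mean was 6.67-fold that at point 1. Its log2 change of 2.71 (SE 0.23, adjusted p = 6.5e-05) ranked 3 of 5613.

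*GNP1* had 13.7 and 10.4 FPKM at point 1, 17.7 and 13.7 at point 2, 16.8 and 18.9 at point 3, and 24.8 and 33.0 at point 4. Its log2 change was 1.19 (SE 0.22, adjusted p = 0.0044), with part of the rise before point 3 and part after it. *TAT1* had 1.20 and 0.616 FPKM at point 1, 1.27 and 1.12 at point 2, 1.87 and 2.65 at point 3, and 4.28 and 6.97 at point 4, with 17 to 173 reads per library. Its log2 change was 1.78 (SE 0.31, adjusted p = 0.0028).

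*TAT2* had 7.94 and 6.66 FPKM at point 1, 7.29 and 10.7 at point 2, 15.2 and 15.6 at point 3, and 15.4 and 18.4 at point 4, a log2 change of 1.11 (SE 0.22, adjusted p = 0.0054). *PTR2* had 2.92 and 2.39 FPKM at point 1, 5.14 and 5.07 at point 2, 12.2 and 10.6 at point 3, and 11.3 and 10.5 at point 4. Points 3 and 4 overlapped, and its log2 change at point 4 was 1.71 (SE 0.22, adjusted p = 0.00067).

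*BAP2* had 274 and 211 FPKM at point 1, 291 and 295 at point 2, 430.5 and 437 at point 3, and 435 and 475 at point 4. Its log2 change of 0.92 (SE 0.15, adjusted p = 0.0022) stayed under the fold limit, with points 1 and 4 separate. The low level of *BAP2* in the point 1 libraries was known when the genes were chosen. *BAP3* had 0.350 and 0.186 FPKM at point 1, from 10 and 5 reads, 0.260 and 0.859 at point 2, 1.10 and 0.944 at point 3, and 5.11 and 7.52 at point 4, from 147 and 182 reads. It was not in the filtered test, and it passed without the filter (log2 change 2.51, SE 0.29, adjusted p = 0.0013), where 3.44% of 6600 genes did.

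*GAP1* and *MUP1* did not pass in either direction. *GAP1* had 319 and 306 FPKM at point 1, 208 and 282 at point 2, 189.7 and 163 at point 3, and 190.1 and 168 at point 4, a log2 change of -0.80 (SE 0.35, adjusted p = 0.12). *MUP1* had 124 and 93.1 FPKM at point 1, 37.0 and 76.0 at point 2, 108 and 91.3 at point 3, and 111 and 118 at point 4, a change of 0.09 (SE 0.34, adjusted p = 0.87).

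The rise rested on 2 cultures. Without culture 2 at point 4 the calls of *GNP1* (adjusted p = 0.067), *TAT1* (adjusted p = 0.048) and *TAT2* (adjusted p = 0.070) were lost and 3 of the 9 remained. Leaving out culture 2 at point 1 lost *GNP1* (adjusted p = 0.041) and *TAT2* (adjusted p = 0.043), and quantile normalization lost *GNP1* on the fold limit (0.91) and *TAT2* on both limits (0.79, adjusted p = 0.035). *AGP1* and *DIP5* passed under all 25 alternatives, at 2.40 to 2.83 and 3.44 to 4.58. *PTR2* passed under all 24 in which it was tested, at 1.35 to 2.01, and with the 8 industrial libraries alone it was under the filter.

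**Figure D3:**
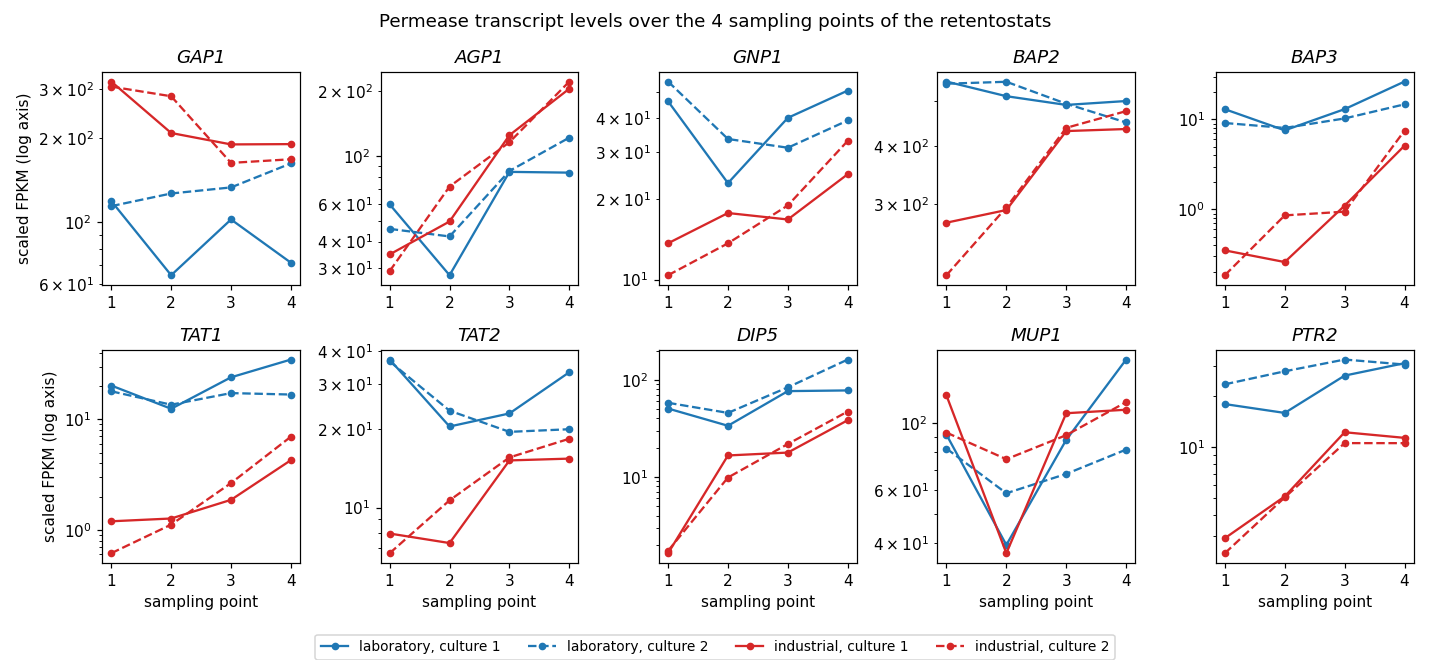
Scaled FPKM (log axis) of each permease gene at the 4 sampling points of the laboratory and industrial retentostats, 1 line per culture. In the industrial cultures *DIP5* goes from 1.64 and 1.73 to 38.3 and 47.1 FPKM and *AGP1* from 34.8 and 29.1 to 205 and 222, while *GAP1* goes from 319 and 306 to 190.1 and 168.

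Points 1 and 4 were also compared in the laboratory retentostats. The sample titles number the later samples of the conditions differently, so equal points need not mean equal time in retention. Per the study, the laboratory cultures also reached a lower growth rate than was estimated for the industrial ones. Of the 9 tested, *DIP5* alone passed between point 1 and point 4, against 10.0% of 5613 genes. It had 50.6 and 57.9 FPKM at point 1, 33.6 and 45.6 at point 2, 76.4 and 83.6 at point 3, and 77.7 and 162 at point 4, a log2 change of 1.04 (SE 0.30, adjusted p = 0.016). This call was lost without the filter (adjusted p = 0.035), with the 8 laboratory libraries alone (adjusted p = 0.041), in the regression on sampling point (adjusted p = 0.032), and without culture 1 at point 1 (adjusted p = 0.091), culture 2 at point 1 (adjusted p = 0.053) or culture 2 at point 4 (log2 0.51, adjusted p = 0.19).

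*AGP1* had 59.5 and 45.8 FPKM at point 1, 27.9 and 42.2 at point 2, 84.3 and 85.2 at point 3, and 83.6 and 122 at point 4. Its log2 change of 0.94 (SE 0.23, adjusted p = 0.0075) was under the fold limit, and passed it, at 1.10 and 1.02, on the deposited values and after quantile normalization. *PTR2* had 17.9 and 23.3 FPKM at point 1 and 31.0 and 30.5 at point 4 (log2 0.57, SE 0.22, adjusted p = 0.055).

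*GNP1* had 46.3 and 54.9 FPKM at point 1, 22.9 and 33.5 at point 2, 40.2 and 31.1 at point 3, and 50.8 and 39.3 at point 4, so that the lowest values were in the middle of the cultivation. *TAT2* had 37.2 and 36.6 FPKM at point 1 and 33.2 and 20.0 at point 4 (log2 -0.50, SE 0.22, adjusted p = 0.084). *BAP2* went from 549.7 and 544 to 499 and 449 FPKM (log2 -0.21, SE 0.15, adjusted p = 0.29). None of these 3 passed.

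*GAP1* went from 119 and 114 to 71.4 and 162 FPKM, *TAT1* from 20.2 and 17.9 to 34.7 and 16.8, *MUP1* from 91.6 and 82.4 to 163 and 81.8, and *BAP3*, which was not tested, from a mean of 11.1 ± 2.74 to 20.6 ± 8.25 (SD, n = 2). In *GAP1*, *TAT1* and *MUP1* the cultures disagreed at point 4, one above and the other below its starting level. *MUP1* was lowest at point 2 in all 4 cultures, at 39.4 and 58.5 FPKM in the laboratory cultures and 37.0 and 76.0 in the industrial ones.

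The changes from point 1 to point 4 were then compared between the conditions. For 5 of the 9 the laboratory change passed the limits as lower than the industrial change, with 2.16% of all genes passing and 1.55% as lower. The laboratory minus the industrial log2 change was -2.98 (SE 0.42, adjusted p = 0.0042) for *DIP5*, -1.77 (SE 0.33, adjusted p = 0.015) for *AGP1*, -1.61 (SE 0.30, adjusted p = 0.015) for *TAT2*, -1.37 (SE 0.32, adjusted p = 0.029) for *GNP1* and -1.12 (SE 0.21, adjusted p = 0.015) for *BAP2*. The *BAP2* value is measured from industrial point 1, whose libraries were already known to be low in this gene. It is therefore not independent of what was known. *TAT1* at -1.45 (SE 0.44, adjusted p = 0.073), *PTR2* at -1.14 (SE 0.31, adjusted p = 0.050), *GAP1* at 0.69 (SE 0.49, adjusted p = 0.44) and *MUP1* at 0.32 (SE 0.49, adjusted p = 0.75) did not pass. With the culture as a replicate block the count stayed at 5, with *PTR2* in (adjusted p = 0.023) and *GNP1* out (adjusted p = 0.041).

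The direction held for these 5 genes under each of 24 alternatives, but their calls depended on single libraries. Without industrial culture 2 at point 4 none of the 9 passed, *DIP5* having an adjusted p of 0.032. Without industrial culture 1 at point 4, industrial culture 2 at point 1 or either laboratory culture at point 1, 1 passed. Without laboratory culture 2 at point 4 or industrial culture 1 at point 1, 2 did. Feed, medium, pH, CO2, the numbering of the later samples and the growth rate reached all differ between these conditions, as possibly does the sequencing provider. Per the study, viability was also lower and the death rate higher in the industrial cultures. These differences cannot be told apart.

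**Figure D4:**
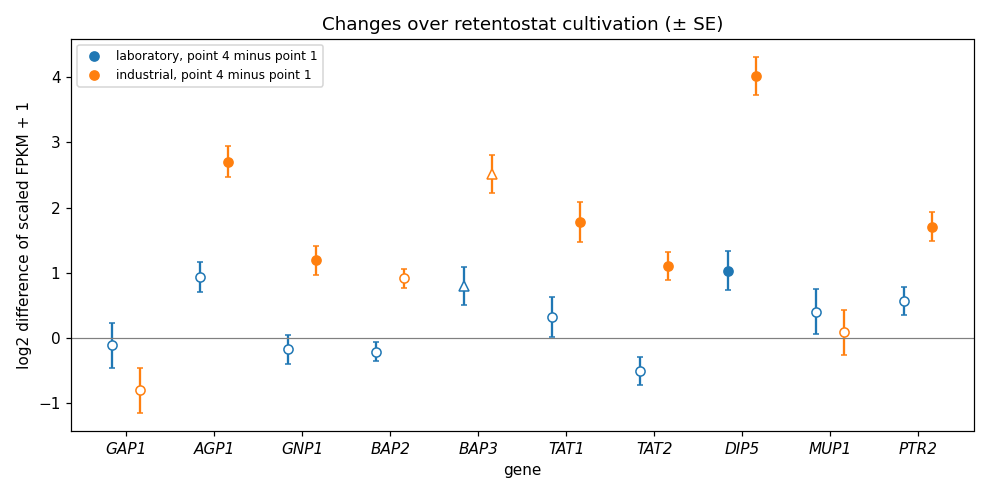
Log2 change of scaled FPKM + 1 (± SE) from point 1 to point 4 of each permease gene in the laboratory and industrial retentostats. Filled symbols passed the limits, open circles did not, and triangles were under the filter and not tested: *DIP5* (4.02) and *AGP1* (2.71) are the highest filled symbols of the industrial cultures, and *DIP5* (1.04) is the only filled laboratory symbol.

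Other genes of amino acid uptake and its control were read from lists chosen by function. Of 10 genes of amino acid sensing (the SPS sensor, Stp1, Stp2 and their partners), 7 were tested at steady state and 10 in the retentostats, and none passed in any of the 8 comparisons. Their median log2 change was 0.04 in the industrial and 0.37 in the laboratory retentostats, with 0.01 and 0.05 over all genes. The 10 genes of permease exit, sorting and turnover also had no member that passed. Of all genes 0.512% to 10.0% passed in the 8 comparisons, so a count of 0 in lists this short, here and below, is near that share.

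Of 11 other plasma membrane amino acid permeases, 9 were tested at steady state and 11 in the retentostats. At pH 3, 3 of the 9 were lower at 50% than at 0.04% CO2 and none higher, where 8.92% of all genes passed, among them *MUP3*, a low-affinity methionine permease (log2 -1.23, SE 0.25, adjusted p = 0.0034), and *MMP1*, the S-methylmethionine permease (-1.03, SE 0.23, adjusted p = 0.0050). For the interaction 2 of the 9 passed, where 2.52% of all genes did, both negative, *MMP1* (-1.81, SE 0.32, adjusted p = 0.0049) and the proline permease *PUT4* (-1.45, SE 0.25, adjusted p = 0.0041). None passed for low pH at 0.04% CO2.

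In the laboratory retentostats 1 of the 11 rose and 1 fell, where 10.0% of all genes passed. *UGA4*, the carrier of 4-aminobutyrate (GABA), rose from 8.80 ± 1.31 to 26.4 ± 10.0 FPKM (SD, n = 2; log2 1.44, adjusted p = 0.0011), and *PUT4* fell from 192 ± 35.8 to 50.8 ± 19.9 FPKM (log2 -1.94, adjusted p = 0.0021). In the industrial ones, where 3.92% of all genes passed, 1 rose and 1 fell too, *UGA4* (log2 1.05, SE 0.26, adjusted p = 0.015) and *MMP1* (-1.48, SE 0.28, adjusted p = 0.0050). The median change of the 11 in the industrial retentostats was -0.52, against 1.19 for the 9 permeases described above, and none of the 11 passed for the difference between the conditions.

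*CUP9*, the repressor of *PTR2*, was 1 of 3 genes of peptide uptake control tested. It fell in the laboratory retentostats from 273 ± 30.0 to 96.5 ± 0.746 FPKM (SD, n = 2; log2 -1.49, SE 0.23, adjusted p = 0.00053), where *PTR2* did not pass. In the industrial ones, where *PTR2* rose, *CUP9* went from 516 ± 47.5 to 268 ± 1.27 FPKM and stayed under the fold limit (log2 -0.94, SE 0.23, adjusted p = 0.016). None of the 3 passed in any other comparison, nor did any of the 3 other peptide and allantoate transporters, of which 1 was tested at steady state and 2 in the retentostats.

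Of 5 factors of nitrogen catabolite repression, 3 were tested at steady state, and *GAT1*, a GATA activator, alone passed. *GAT1* was higher at pH 3 than at pH 5 at 0.04% CO2 (110.4 ± 8.74 against 27.8 ± 8.49 FPKM, SD, n = 3; log2 1.99, SE 0.21, adjusted p = 0.00011) and lower at 50% than at 0.04% CO2 at pH 3 (50.4 ± 3.89 FPKM; log2 -1.12, SE 0.21, adjusted p = 0.0020). It fell over the laboratory retentostats (log2 -1.46, SE 0.19, adjusted p = 0.00017), and none of the 5 factors passed in the industrial ones.

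Of 9 vacuolar amino acid transporters, which move amino acids between vacuole and cytosol, 2 were higher at pH 3 with 0.04% CO2 than in the reference, where 3.70% of all genes passed, *AVT6* (log2 2.00, SE 0.18, adjusted p = 4.4e-05) and *AVT1* (1.16, SE 0.17, adjusted p = 0.0011). At pH 3, 3 of the 9 were lower at 50% CO2, where 8.92% of all genes passed, *AVT6* (-1.20, adjusted p = 0.00068), *AVT1* (-1.10, adjusted p = 0.00089) and *AVT3* (-1.02, adjusted p = 0.0034), and *AVT6* passed for the interaction (-1.76, adjusted p = 0.0026). None of the 9 passed in the retentostats. Of 10 regulators of amino acid synthesis genes, only *MET31*, a factor of the methionine pathway, passed, in the laboratory retentostats (log2 1.13, SE 0.16, adjusted p = 0.00028).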

How the data were processed

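Per the labels and the study's methods, reads were mapped with STAR 2.5.3a to the R64 genome, counted per gene with HTSeq, and deposited by the authors as FPKM per library. The values were whole multiples of 1 read for 99.7% to 99.9% of genes (within 0.05 of a whole number, up to 1000 reads). This gave the library totals behind the FPKM and the reads per gene. No pair of libraries was identical. Here each library was scaled by a trimmed mean of log ratios (30% of ratios and 5% of levels trimmed at each end, 5422 genes), the pseudocount was 1, and limma 3.58.1 (R 4.3.3) with a mean-variance trend was fitted on log2 values of genes with a mean of at least 10 FPKM, with Benjamini-Hochberg adjustment. Log2 changes of low genes are understated by the pseudocount. 12 steady-state and 16 retentostat libraries entered 1 fit each. Calls needed a fold above 2 with an adjusted p under 0.005, or under 0.03 in the retentostats. On simulated data with 200 genes changed 4-fold, 193 were recovered for low pH at 0.04% CO2 and 197 for the laboratory retentostat. The changed genes were drawn from genes with higher means than *TAT2* at steady state and than *TAT1*, *TAT2* and *PTR2* in the retentostats. The simulated noise was independent between genes and libraries, without deviations shared by a culture. The recovery therefore need not hold for these permeases. The same retentostat culture was sampled at each point, so numbers pair the libraries; deviations of the same culture correlated at -0.01 to 0.72 (laboratory) and -0.07 to 0.27 (industrial). All 10 genes are named, and of each other list at most 4 genes, those with the largest change that passed. Members and lists were chosen with earlier results of these data known. Sequences were handled with Biopython 1.88. P-values rest on the spread between libraries of the same group, pooled over all groups of the fit and moderated by the trend over all genes. Repeated samples of 1 retentostat culture entered the main fit as separate libraries.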

Additional observations from a re-analysis of the deposited data

Results flagged for a closer look

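Change over retentostat cultivation differed between the conditions, by the test of the difference itself, for 5 permeases. The laboratory minus the industrial log2 change was -1.77 for *AGP1*, -1.37 for *GNP1*, -1.12 for *BAP2*, -1.61 for *TAT2* and -2.98 for *DIP5*, each with 2 cultures per condition. The *BAP2* value is measured from starting industrial libraries already known to be low in this gene, so it is not independent of what was known. No permease passed for the interaction of pH and CO2. Groups of 2 and 3 libraries were too small to test single libraries for outliers.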

How the results depend on the processing

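Over 62 results on single permeases and 1411 alternative values, 1309 were counted as the same. In the tested comparisons this meant the same direction and the same side of the limits. In the comparisons of 50% CO2 with the reference it meant a value near the main one relative to its SE. There, values could lose a call, or change sign without a call, and still count as the same. The count of permeases that passed at low pH with 0.04% CO2 went from 0 to 2 without scaling, to 3 at an adjusted p under 0.05 with no fold limit, to 2 without reference culture 3 and culture 1 at pH 5 with 50% CO2 (chosen after seeing the data), and was 0 to 1 when each library was left out. At pH 5 the count for CO2 went from 1 to 0 with only the 2 groups compared. For low pH with 50% CO2 against the reference it went from 2 to 1 without the filter, 5 with the looser limit, 0 with the labelled chemostat alone, 5 without the 2 libraries, and 1 to 4 with each library left out. For CO2 at pH 3 it went from 1 to 3, and for the interaction from 0 to 1, both with the looser limit and without the 2 libraries. The looser limit held 49.4% of all genes for CO2 at pH 3, 21.1% for the interaction, 21.3% for low pH at 0.04% CO2, 10.0% for low pH with 50% CO2 and 39.4% in the laboratory retentostats. Without the 2 libraries 11.8%, 10.7% and 3.45% of all genes passed in the first 3 of these. In the laboratory retentostats it went from 1 to 2 without scaling, with quantile normalization and with the looser limit, to 0 without the filter and with the 8 libraries of the condition, and was 0 to 2 when each library was left out. In the industrial ones it was 3 to 7 with each library left out, against 6. The count for the difference went from 5 to 3 without scaling, with quantile normalization and with the regression on sampling point, and was 0 to 6 with each library left out.

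Signs of values near zero turned as follows. Without scaling, *BAP2* was at -0.067 and *MUP1* at -0.043 at low pH with 0.04% CO2, *AGP1* at 0.10 and *TAT2* at 0.30 for CO2 at pH 3, *BAP2* at 0.61 for the interaction and *GAP1* at 0.049 in the laboratory retentostats. The interaction of *BAP2* was also 0.34 with quantile normalization and 0.056 without the 2 libraries, and *GAP1* in the laboratory retentostats 0.00932 in the regression. With each library left out in turn, ranges spanned zero for *GAP1* for CO2 at pH 3 (-0.15 to 0.49), *BAP2* for the interaction (-0.15 to 0.16), and in the laboratory retentostats *GAP1* (-0.70 to 0.47), *GNP1* (-0.35 to 0.0100), *TAT1* (-0.17 to 0.83) and *MUP1* (-0.087 to 0.90). They also did for *MUP1* in the industrial retentostats (-0.11 to 0.29) and for the difference (-0.18 to 0.81). For CO2 at pH 5, which is only described, the ranges of *AGP1* (-0.30 to 0.60) and *GNP1* (-0.18 to 0.45) spanned zero as well. *DIP5* at low pH with 50% CO2 against the reference moved to -2.47 with the labelled chemostat alone. The cause was not tested.

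Chemostat numbers do not pair libraries: same-numbered deviations correlated at -0.80 to 0.50, and the replicate block left 1, 0, 2, 1 and 0 permeases passing, as without it. The block in the retentostats left the counts at 1, 6 and 5 and changed no call besides those of *PTR2* and *GNP1* for the difference. Over all genes, leaving libraries unscaled changed the calls for CO2 at pH 3 from 453 (37 higher) to 1203 (1054 higher), low pH at 0.04% CO2 from 188 (146 higher) to 194 (63), low pH with 50% CO2 from 75 (25) to 71 (32), the interaction from 128 (13) to 57 (24), the laboratory retentostats from 563 (236) to 616 (397) and the difference from 121 (34) to 131 (69). The median of all genes was then shifted by 0.62 for the interaction, 0.18 for low pH with 50% CO2, 0.21 in the laboratory retentostats and 0.13 for the difference. The interaction had 540 calls without the 2 libraries, 79 with quantile normalization, 30 with the block, 12 without the filter and 0 with the labelled chemostat alone. That last choice left 18 calls for low pH with 50% CO2, which had 257 without the 2 libraries and 43 without the filter, and 113 for CO2 at pH 3. CO2 at pH 5 went from 26 to 12 with the block, 8 without the filter and 1 with only its 2 groups, and low pH to 123 with the block. Quantile normalization gave 382 calls (82 higher) for CO2 at pH 3, 120 against 220 in the industrial retentostats and 202 for the difference. For *BAP3* and *TAT1* at pH 3 the low read numbers limit what can be seen.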

Other observations

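Reference culture 3 and culture 1 at pH 5 with 50% CO2, the libraries in which all 10 permeases were lowest, also deviated alike across other genes. Their deviations from their group means correlated at 0.85 (Pearson r) across the 5078 genes tested, which are not independent replicates. *NCE103* followed the label in both libraries.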
